A study of Mus musculus with 40 samples.

Results

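The response of the prepubertal mouse uterus to anti-Müllerian hormone (AMH) was compared between harvests labelled 24 h and 4 h, in animals that received no doxorubicin. The question was which genes responded differently at the later time, so each gene's AMH effect at 4 h was subtracted from its AMH effect at 24 h. The comparison used 20 of the 40 libraries of the series, in 4 groups of 5: AMH at 0.75 mg/kg harvested at 24 h, PBS/saline controls harvested at 24 h, AMH at 0.75 mg/kg harvested at 4 h, and PBS/saline controls harvested at 4 h. The other 20 libraries, from uteri given doxorubicin at 3 mg/kg with AMH or doxorubicin alone at the same times, were kept apart and served as a second set that shares no library with the first. The design text describes prepubertal mice at postnatal day 25 and 2 weekly doses of doxorubicin. It gives no strain, genotype or clock hour of harvest. The schedule of AMH in mice without doxorubicin is not given in the labels, so the hours may not count from a single dose. The tissue is whole uterus and the assay is bulk RNA-seq, and libraries are labelled as biological replicates, not as single mice. The p-values thus cover only the spread among these libraries, which may not be the spread among single mice. In bulk RNA, fewer cells of a type and less RNA per cell cannot be told apart.

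AMH is a secreted protein of the TGF-beta family that makes the Müllerian ducts, the embryonic source of the uterus and oviducts, regress in male embryos. It binds its own type II receptor, Amhr2, which pairs with the type I receptors Bmpr1a or Acvr1. These receptors phosphorylate Smad1, Smad5 and Smad9, which enter the nucleus with Smad4 and switch on genes such as Id1, Id2, Id3, Smad6 and Atoh8. The inhibitory Smad6 and Smad7 dampen the same pathway.

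The promoters of 4 genes are shown. Cyr61 and Errfi1 had an AMH effect that differed between the times. Smad9 and Id2, direct readouts of the AMH receptor pathway, did not pass the test of that difference. Each run gives the 250 bases before the gene's RefSeq start on build GRCm38.p6, 5′ to 3′ on the gene's own strand. Capitals mark CATTCC, the core bound by TEAD proteins, and GGCGCC, a GC-rich element that SMAD proteins can bind. The Cyr61 run lies on the minus strand at chr3:145649986-145650235, the Errfi1 run (the first of its 2 RefSeq starts) on the plus strand at chr4:150853546-150853795, the Smad9 run on the plus strand at chr3:54755332-54755581, and the Id2 run on the minus strand at chr12:25096093-25096342.
Cyr61: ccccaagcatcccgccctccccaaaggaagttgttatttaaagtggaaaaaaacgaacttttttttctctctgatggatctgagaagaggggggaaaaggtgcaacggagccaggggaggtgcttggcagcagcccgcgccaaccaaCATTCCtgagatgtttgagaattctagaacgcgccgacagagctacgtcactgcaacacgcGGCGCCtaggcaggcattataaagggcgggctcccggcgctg
Errfi1: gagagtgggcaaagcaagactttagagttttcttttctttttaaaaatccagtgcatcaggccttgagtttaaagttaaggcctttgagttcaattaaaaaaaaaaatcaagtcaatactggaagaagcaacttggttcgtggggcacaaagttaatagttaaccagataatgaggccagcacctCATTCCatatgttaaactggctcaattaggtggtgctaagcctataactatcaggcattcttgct
Smad9: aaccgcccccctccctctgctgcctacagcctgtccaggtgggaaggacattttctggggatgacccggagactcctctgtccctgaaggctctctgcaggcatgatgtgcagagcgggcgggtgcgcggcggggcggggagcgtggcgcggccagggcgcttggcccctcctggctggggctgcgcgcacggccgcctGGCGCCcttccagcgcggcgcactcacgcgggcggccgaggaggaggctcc
Id2: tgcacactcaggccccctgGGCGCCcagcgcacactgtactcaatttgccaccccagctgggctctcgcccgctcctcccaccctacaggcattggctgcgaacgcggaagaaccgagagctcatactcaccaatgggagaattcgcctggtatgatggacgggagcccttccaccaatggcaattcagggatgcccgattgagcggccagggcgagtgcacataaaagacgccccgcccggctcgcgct
CATTCC began 103 bases before the start of Cyr61 and 65 bases before the first start of Errfi1. The run before the second Errfi1 start, at chr4:150854820-150855069, had no CATTCC. It held TGACGTCA, which began 51 bases before that start and stood in 1.62% of RefSeq promoters. GGCGCC began 42 bases before the start of Cyr61, 51 before that of Smad9 and 231 before that of Id2, and no 2 marked matches overlapped. Read on both strands, CATTCC stood in 12.6% and GGCGCC in 9.54% of 27025 RefSeq promoters of the same length. Of 28 genes searched (the 22 protein-coding genes past the test below and 6 SMAD targets), 24 had an entry; Ctgf, Myocd, Pomk and Id1 did not. The first entry of each gene was counted. CATTCC was found in 2 of 10 genes whose AMH effect was lower at 24 h, which are the pair shown (Cyr61 and Errfi1). It was found in 1 of 9 whose effect was higher, and GGCGCC was found in 2 of 10 and 3 of 9. Each run shown thus holds a match, and the runs of the other called genes, most without CATTCC, are not shown. Of the 5 SMAD targets with an entry, CATTCC was found in 1 (Id3) and GGCGCC in 2, which are the pair shown; Id3, Smad6 and Atoh8 had no GGCGCC. A match is a string of letters and was not tested as a binding site.

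Reads in genes, rebuilt from the deposited values, ranged from 16828077 to 27391049 over the 20 libraries. Steroid receptors of the uterus were present in every library: Esr1, the oestrogen receptor, lay between 37.7 and 52.9 FPKM (fragments per length of the gene and per size of the library), and Pgr, the progesterone receptor, between 31.1 and 69.7 FPKM. Replicates varied more at 24 h than at 4 h: the median within-group SD on the log2(FPKM + 1) scale was 0.27 for AMH and 0.285 for controls at 24 h, against 0.141 for AMH and 0.171 for controls at 4 h. The libraries also stood apart in an oestrogen-responsive score, the mean log2(FPKM + 1) of 38 genes known to respond to oestrogen in the uterus. It ran from 3.16 to 4.57 in AMH uteri at 24 h, from 3.58 to 5.14 in controls at 24 h, from 3.06 to 3.37 in AMH uteri at 4 h and from 3.48 to 4.07 in controls at 4 h. AMH replicate 3 and control replicates 1, 2 and 4 at 24 h lay more than 0.6 above the median of the 20 libraries. A second score, over 7 squamous epithelium markers that mark vagina or cervix, lay more than 1 above the median in 7 libraries: AMH replicate 1 and control replicates 3 and 5 at 24 h, and AMH replicates 4 and 5 and control replicates 2 and 3 at 4 h. Their summed levels ran from 4.25 to 464 FPKM in AMH uteri and from 9.44 to 110 FPKM in controls at 24 h, and from 4.79 to 424 FPKM in AMH uteri and from 5.48 to 1230 FPKM in controls at 4 h. The part of either score in the results below was not tested; the main counts are also given without these libraries, a choice made after the data were seen.

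**Figure D1:**
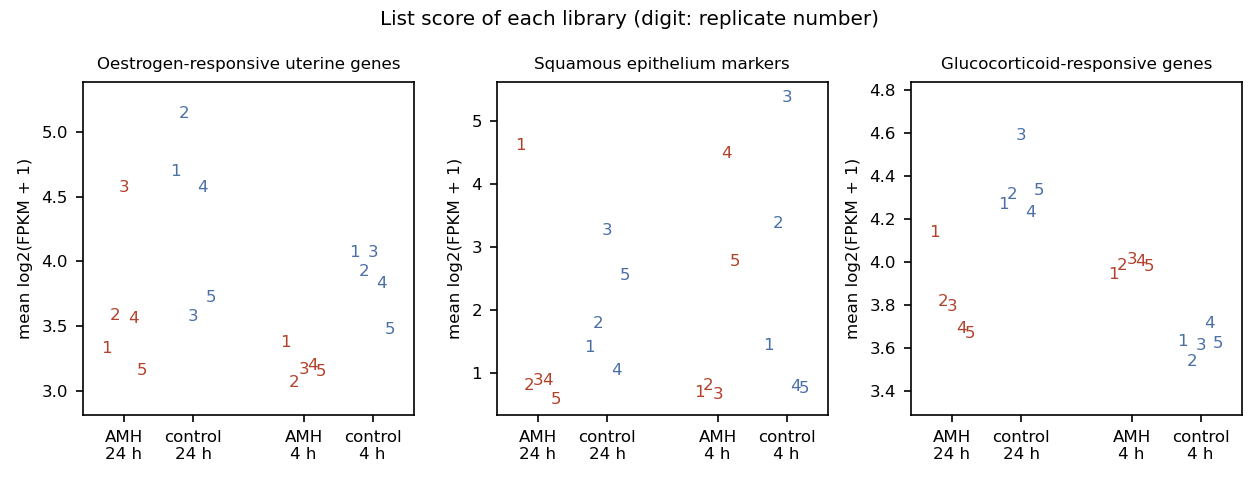
Library scores, the mean log2(FPKM + 1) over a gene list, for the 4 groups with 24 h before 4 h and AMH before control; each digit is 1 library and gives its replicate number. The oestrogen-responsive score spreads most at 24 h, and the glucocorticoid-responsive score is lowest in controls at 4 h and highest in controls at 24 h.

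The AMH effect differed between 24 h and 4 h for few genes. Of 15084 genes tested with limma, 25 (0.166%) passed an adjusted p of 0.05: 10 (0.0663%) had a higher AMH effect at 24 h and 15 (0.0994%) a lower one. Without adjustment 1746 genes had p under 0.05, 822 higher and 924 lower. The effects behind this difference gave unequal counts. AMH against control gave 29 genes at 24 h (0.192%, 11 higher and 18 lower) and 2194 at 4 h (14.5%, 962 higher and 1232 lower). The SD of the log2 effects over all genes was 0.31 at 24 h and 0.42 at 4 h. The 24 h count was 10 without the 4 libraries of high oestrogen-responsive score (4 of the 29 were among them, with Errfi1 and Tiparp called and Cyr61, Spsb1, Frzb and Diras2 not) and 1746 without the 7 of high squamous score, which gave 496 genes at 4 h; leaving out single libraries gave 1 to 360 genes at 24 h and 597 to 2120 at 4 h. Gm13408 was the last gene inside the threshold, with an adjusted p of 0.0481 and a log2 difference of -0.76, and Trp53inp1 the first outside it, with 0.0508 and -1.50. The count of 25 moved with single libraries. It was 210 without AMH replicate 1 at 24 h and 60 without control replicate 4 at 24 h, and it was 10 or fewer without each of control replicate 2 at 24 h (7), AMH replicates 2 and 4 at 24 h (5 and 2), AMH replicates 1 to 5 at 4 h (2, 10, 2, 5 and 9) and control replicates 1 to 5 at 4 h (2, 3, 2, 8 and 3); without AMH replicate 3 at 24 h it was 11. Without the 4 libraries of high oestrogen-responsive score, which left 2 controls at 24 h, it was 1325 (8.78%) and all 25 were among them. Without the 7 libraries of high squamous score it was 5, and 3 of the 25 (Errfi1, Ctgf and Spsb1) were among them.

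Of the 25 genes, 22 were protein-coding, 12 with a lower and 10 with a higher AMH effect at 24 h; the others were the processed pseudogenes Rps13-ps1 (-0.97), Gm7331 (-0.98) and Gm13408 (-0.76), whose reads may belong to their parent genes. Other genes of the table overlap 14 of the 25, and 5 are overlapped by a protein-coding gene, among them Wnt5b by Fbxl14, Mettl1 by Eef1akmt3 and Sgsh by Card14. Whether counting used strand is not given in the sources used here, so reads of such pairs cannot be told apart.

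For the 15 genes with a lower AMH effect at 24 h the log2 interaction ran from -2.32 to -0.76, with a median of -1.18. In all 15 the AMH effect was below 0 at 24 h (median -0.66) and above 0 at 4 h (median 0.47). At 24 h 7 were called lower, against 0.119% of all genes, and at 4 h 8 were called higher, against 6.38%. All AMH libraries lay below all controls at 24 h in 8 of 15, a pattern found in 0.656% of all genes, and above all controls at 4 h in 9 of 15, against 11.9% of all genes. Control uteri were higher at 24 h than at 4 h in all 15 (median 0.86, 13 called). Of all genes 4.42% were called in this contrast, 2.57% higher. AMH uteri differed between the times by a median of -0.20 (1 called lower), where 0.968% of all genes were called, 0.544% higher. The effects at each time, both time contrasts and the interaction share libraries, so these are views of the same values and not independent results. The 15 were chosen by the interaction, so the counts above follow in part from that choice.

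Errfi1 (ENSMUSG00000028967, chr4:150853919-150868892, mm10), also called MIG6, binds and dampens the EGF receptor and is known in mouse uterus to restrain oestrogen action. Its FPKM was 22.2, 23.1, 19, 14.8 and 14.6 in AMH uteri and 49.5, 52, 69.1, 38.5 and 62.9 in controls at 24 h. The 4 h libraries gave 21.9, 28.7, 19.5, 18 and 20 in AMH uteri and 14.5, 14, 16.1, 17.2 and 13.9 in controls. All 5 AMH libraries lay below all 5 controls at 24 h and all 5 lay above them at 4 h. The AMH effect was -1.48 at 24 h (adjusted p = 0.00024, limma) and 0.47 at 4 h (adjusted p = 0.051), and the interaction was -1.96 ± 0.22 (SE; adjusted p = 0.000707, limma). This call, and that of Ctgf, held in each of 32 alternatives, which include leaving out each of the 20 libraries in turn.

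Ctgf (CCN2; chr10:24595442-24598683) and Cyr61 (CCN1; chr3:145646976-145649981) encode secreted, matrix-associated proteins and are textbook targets of YAP and TEAD. Ctgf measured 15.5, 10.9, 6.86, 8.3 and 9.96 FPKM in AMH uteri and 9.12, 17.6, 26.1, 16.9 and 20.7 FPKM in controls at 24 h. Its 4 h values were 14.7, 19.6, 18.8, 17.2 and 17.2 FPKM in AMH uteri and 4.81, 5.13, 6.51, 4.47 and 4.91 FPKM in controls. The groups overlapped at 24 h and were far apart at 4 h, where every AMH library was above every control. Its AMH effect was -0.73 at 24 h (adjusted p = 0.152, limma) and 1.59 at 4 h (adjusted p = 0.00156), and the interaction was -2.32 ± 0.30 (SE; adjusted p = 0.00194, limma).

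Cyr61 showed the reverse balance between the times. It measured 7.14, 13.8, 13.5, 9.38 and 9.63 FPKM in AMH uteri and 30.9, 81.9, 21.2, 36.9 and 25 FPKM in controls at 24 h. Values at 4 h were 9.87, 9.09, 8.08, 8 and 18.5 FPKM in AMH uteri and 9.51, 4.29, 7.47, 8.33 and 5.2 FPKM in controls. All AMH libraries were below all controls at 24 h, and the groups overlapped at 4 h. Its interaction of -2.18 ± 0.43 (SE; adjusted p = 0.0481, limma) was called in 4 of 20 fits with 1 library left out, over which its direction held.

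Jun, a subunit of the AP-1 transcription factor, stood at 75.4, 89, 40.6, 68.8 and 73.8 FPKM in AMH uteri and 93, 110, 101, 63.3 and 94.9 FPKM in controls at 24 h. Harvest at 4 h gave 87.3, 77.6, 75.5, 71.3 and 74 FPKM in AMH uteri and 36.6, 36.4, 40.7, 39.7 and 34.2 FPKM in controls. Per1, a repressor in the circadian clock that glucocorticoids also induce, stood at 15.5, 9.95, 6.22, 7.95 and 8.37 FPKM in AMH uteri and 11.3, 7.68, 20.5, 13.7 and 21.1 FPKM in controls at 24 h. Earlier, at 4 h, values were 15.9, 19.4, 17.3, 18.2 and 16.4 FPKM in AMH uteri and 5.52, 7.81, 8.84, 8.52 and 8.72 FPKM in controls. In both genes the 4 h groups did not overlap, with AMH above control, and the 24 h groups did. The interaction was -1.45 ± 0.23 for Jun (SE; adjusted p = 0.0292, limma) and -1.62 ± 0.32 for Per1 (adjusted p = 0.0481). Jun was called in 13 and Per1 in 3 of 20 fits with 1 library left out.

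The other protein-coding genes of this direction had interactions closer to 0. Spsb1, a substrate adaptor of a ubiquitin ligase, averaged 7.08 ± 2.48 FPKM in AMH uteri and 12.7 ± 2.36 FPKM in controls at 24 h. At 4 h the values were 6.35 ± 0.911 FPKM in AMH uteri and 4.33 ± 0.246 FPKM in controls (SD, n = 5 each). Tiparp, a mono-ADP-ribosyltransferase induced by the aryl hydrocarbon receptor, averaged 8.25 ± 0.886 FPKM in AMH uteri and 16.7 ± 4.26 FPKM in controls at 24 h. The 4 h libraries gave 6.83 ± 1.1 FPKM in AMH uteri and 6.06 ± 0.95 FPKM in controls. The interaction was -1.25 for Spsb1 (adjusted p = 0.0353, limma) and -1.06 for Tiparp (adjusted p = 0.0383), and in both the AMH effect passed the test at 24 h and not at 4 h.

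Frzb, a secreted WNT antagonist, averaged 2.56 ± 0.551 FPKM in AMH uteri and 5.2 ± 1.27 FPKM in controls at 24 h. Its 4 h values were 3.49 ± 0.767 FPKM in AMH uteri and 2.41 ± 0.382 FPKM in controls (SD, n = 5 each). Wnt5b, a WNT ligand, averaged 6.49 ± 0.368 FPKM in AMH uteri and 8.74 ± 2.23 FPKM in controls at 24 h. Values at 4 h were 8.9 ± 0.55 FPKM in AMH uteri and 5.63 ± 0.549 FPKM in controls. Their interactions were -1.18 (adjusted p = 0.0353, limma) and -0.94 (adjusted p = 0.0345); the AMH effect on Frzb passed the test at 24 h and that on Wnt5b at 4 h.

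Myocd, the coactivator of serum response factor that turns on smooth muscle genes, averaged 6.35 ± 1.35 FPKM in AMH uteri and 8.9 ± 1.16 FPKM in controls at 24 h. Harvest at 4 h gave 6.31 ± 0.509 FPKM in AMH uteri and 4.48 ± 0.714 FPKM in controls (SD, n = 5 each; interaction -0.86, adjusted p = 0.0481, limma). Of 14 smooth muscle markers none was called for the interaction (1 had an unadjusted p under 0.05); their median was -0.13, with 3 above and 11 below 0. That median was -0.42 without the libraries of high squamous score, with 13 of 14 below 0 and 5 with an unadjusted p under 0.05. Mettl7a1 (-1.23, adjusted p = 0.0457) and Serinc3 (-0.77, adjusted p = 0.0481) were the last of the 12. Serinc3 was the only one of the 15 whose AMH uteri passed the test between the times, with 105 ± 18 FPKM at 24 h and 154 ± 6.04 FPKM at 4 h (SD, n = 5 each).

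**Figure D2:**
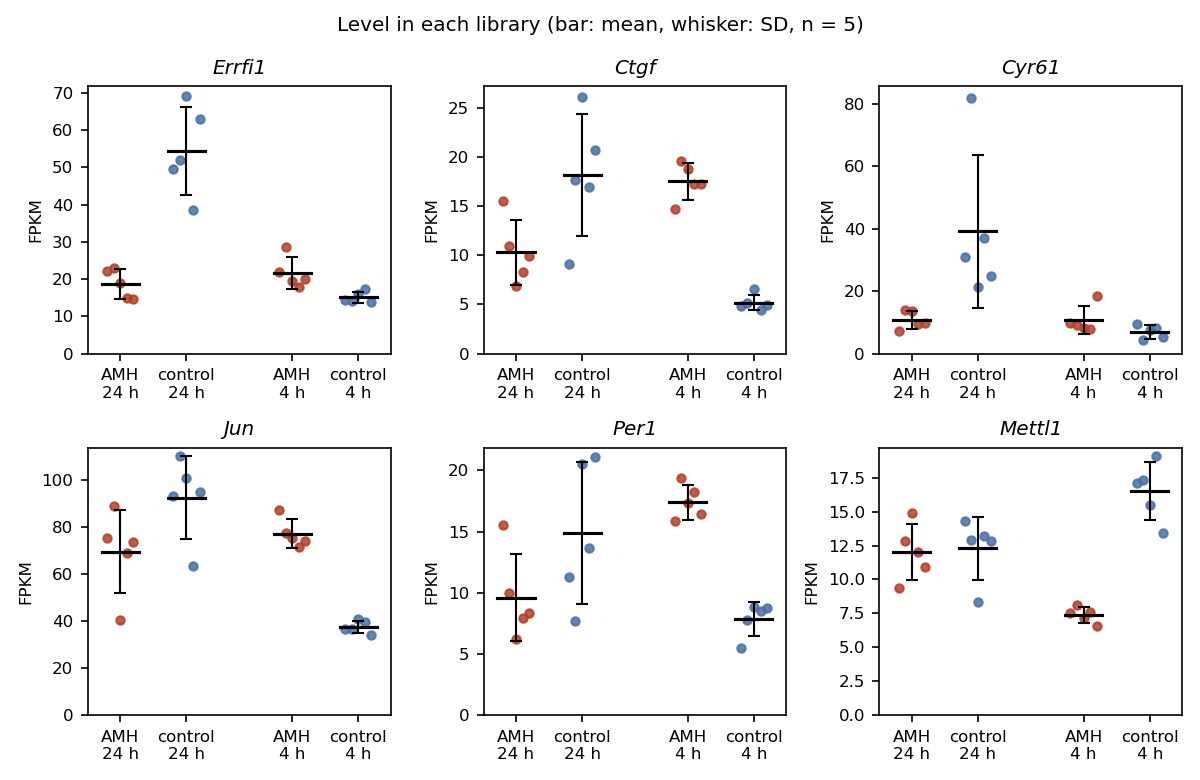
FPKM of called genes in each of the 20 libraries, with AMH left of control and 24 h left of 4 h; each point is 1 library, the bar is the group mean and the whisker the SD (n = 5). Errfi1 lies lower with AMH than in controls at 24 h and higher at 4 h, and the Mettl1 groups overlap at 24 h and not at 4 h.

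For the 10 genes with a higher AMH effect at 24 h the log2 interaction ran from 0.59 to 1.27, with a median of 0.83. On the log2(FPKM + 1) scale the AMH effect was above 0 at 24 h in 9 of 10 (median 0.22) and below 0 at 4 h in all 10 (median -0.57). At 24 h 1 was called higher, against 0.0729% of all genes, and at 4 h 9 were called lower, against 8.17%. In 8 of the 10 all AMH libraries lay below all controls at 4 h, a pattern found in 13.9% of all genes. In 2 of the 10 all lay above at 24 h, against 0.464%. The 10 were chosen by the interaction on these same libraries, so these counts follow in part from the choice and are not independent results.

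Mettl1, which methylates guanosine in transfer RNAs, measured 9.33, 12.8, 14.9, 12 and 10.9 FPKM in AMH uteri and 14.3, 12.9, 8.34, 13.2 and 12.8 FPKM in controls at 24 h. Earlier, at 4 h, values were 7.54, 8.1, 7.15, 7.58 and 6.57 FPKM in AMH uteri and 17.1, 17.3, 15.5, 19.1 and 13.4 FPKM in controls. At 4 h the highest AMH library was well below the lowest control, and at 24 h the groups lay on top of each other. The AMH effect was -0.03 at 24 h and -1.05 at 4 h (adjusted p = 0.00118, limma), and the interaction was 1.02 ± 0.18 (SE; adjusted p = 0.0383). Gamt, the second enzyme of creatine synthesis, averaged 9.18 ± 1.8 FPKM in AMH uteri and 7.9 ± 1.13 FPKM in controls at 24 h. At 4 h the values were 6.71 ± 1.48 FPKM in AMH uteri and 13.2 ± 2.38 FPKM in controls (SD, n = 5 each; interaction 1.07, adjusted p = 0.0481, limma).

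Diras2, a small GTPase, was the exception, since its AMH effect passed the test at 24 h and not at 4 h. It measured 2.18, 2.89, 1.14, 1.55 and 2.75 FPKM in AMH uteri and 0.531, 0.0712, 0.458, 0.385 and 1.01 FPKM in controls at 24 h. The 4 h libraries gave 1.22, 1.77, 1.12, 1.37 and 1.14 FPKM in AMH uteri and 1.43, 1.34, 1.64, 2.1 and 2.04 FPKM in controls. Every AMH library was above every control at 24 h, at levels near the filter of 1 FPKM, where the scale understates a change. Its AMH effect was 1.05 at 24 h (adjusted p = 0.0219, limma) and -0.22 at 4 h (adjusted p = 0.381), and the interaction was 1.27 ± 0.25 (SE; adjusted p = 0.0481).

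Also called were Sgsh, the sulfamidase that degrades heparan sulphate (0.81, adjusted p = 0.0353, limma), Borcs5, a subunit of the BORC complex that positions lysosomes (0.84, adjusted p = 0.0481), and Abca2, an endolysosomal lipid transporter (0.64, adjusted p = 0.0481). Sgsh averaged 4.2 ± 0.742 FPKM in AMH uteri and 3.29 ± 0.337 FPKM in controls at 24 h. Its 4 h values were 3.65 ± 0.528 FPKM in AMH uteri and 5.77 ± 0.453 FPKM in controls (SD, n = 5 each). The remaining genes were Pm20d2 (0.96), the SET-domain methyltransferase Smyd5 (0.81), the centrosomal protein Cep41 (0.73) and Pomk (0.59), the kinase that phosphorylates the O-mannose glycan of dystroglycan. Each of the 10 was called in 8 or fewer of the 20 fits with 1 library left out.

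**Figure D3:**
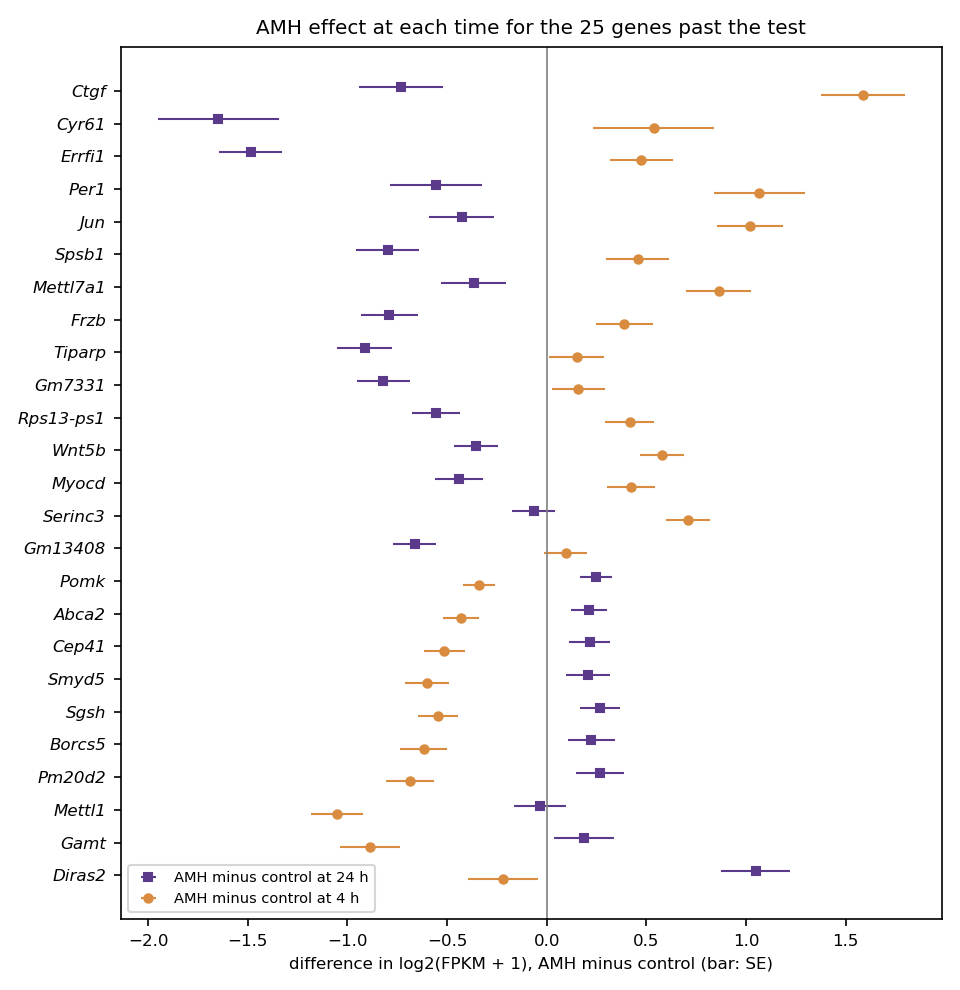
AMH effect (difference in log2(FPKM + 1), AMH minus control) of each of the 25 called genes at 24 h (squares) and at 4 h (circles), with the SE as a bar. The 15 lower genes lie left of 0 at 24 h and right of it at 4 h, and 9 of the 10 higher genes do the opposite; Mettl1 is near 0 at 24 h.

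The direct readouts of the AMH receptor pathway did not pass the test for the interaction in the fit of all 20 libraries. Of 20 SMAD1/5/9 targets 17 were tested and none was called (limma). An unadjusted p under 0.05 was found for 2 higher and 2 lower, and voom on rebuilt reads called none. Without the libraries of high oestrogen-responsive score 1 was called higher (Id1) and 2 lower (Smad9 and Atoh8). Of all genes 5.09% were called higher and 3.69% lower there. The median AMH effect of the 17 was 0.34 at 24 h and 0.26 at 4 h, against -0.02 and 0.01 over all genes. Id2 and Smad6, 2 of the 17, were called higher with AMH at 24 h (against 0.0729% of all genes) and 5 were at 4 h (Atoh8, Hey1, Id2, Id3 and Smad9, against 6.38%). Without the libraries of high oestrogen-responsive score none was called at 24 h: the effect was 0.48 for Id2 (adjusted p = 0.153, limma) and 0.56 for Smad6 (adjusted p = 0.226), and the list median was 0.22. The 24 h call of Id2 was also lost without each of control replicates 1, 2 and 4 and AMH replicates 1, 2, 4 and 5 at 24 h, with effects of 0.575 to 0.745 (adjusted p = 0.0653 to 0.162).

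Id2, an inhibitor of basic helix-loop-helix transcription factors, measured 47.2, 57.2, 40.7, 58.2 and 48.3 FPKM in AMH uteri and 33.2, 20.3, 39.3, 26 and 35.6 FPKM in controls at 24 h. Values at 4 h were 71.5, 72.4, 68.5, 71.7 and 66.4 FPKM in AMH uteri and 42.9, 44.8, 44.9, 38.1 and 43.4 FPKM in controls. AMH libraries were above all controls at both times, while the level in both groups was lower at 24 h. On the log2(FPKM + 1) scale the AMH effect was 0.71 at 24 h (adjusted p = 0.0411, limma) and 0.70 at 4 h (adjusted p = 0.00776), and the interaction was 0.01 with a 95% interval of -0.39 to 0.42. For its relative Id3 the effect was 0.76 at 24 h (adjusted p = 0.0609) and 0.77 at 4 h (adjusted p = 0.0103), with an interval of -0.48 to 0.48 for the interaction. These intervals bound a change of the Id2 and Id3 effects between the times but do not show that the effects were equal.

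Smad9, the receptor-activated SMAD that is itself a target of the pathway, measured 1.03, 1.38, 0.388, 0.882 and 1.95 FPKM in AMH uteri and 0.336, 0.114, 0.538, 0.211 and 0.587 FPKM in controls at 24 h. Harvest at 4 h gave 2.74, 3.37, 3.05, 2.97 and 2.71 FPKM in AMH uteri and 0.284, 0.806, 0.426, 0.364 and 0.671 FPKM in controls. The groups were far apart at 4 h and touched at 24 h, where AMH replicate 3 lay within the controls. The AMH effect was 0.62 at 24 h (adjusted p = 0.145, limma) and 1.40 at 4 h (adjusted p = 0.00118), and the interaction was -0.79 with an interval of -1.28 to -0.29 (adjusted p = 0.181). Without the libraries of high oestrogen-responsive score it was -0.86 (adjusted p = 0.0296). Within AMH uteri alone, Smad9 was lower at 24 h than at 4 h by a log2 difference of -0.94 (adjusted p = 0.0132).

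Id1, another inhibitor of the same family, averaged 81.8 ± 19.9 FPKM in AMH uteri and 59.1 ± 13.2 FPKM in controls at 24 h. Earlier, at 4 h, values were 53.1 ± 5.04 FPKM in AMH uteri and 72.9 ± 14.9 FPKM in controls (SD, n = 5 each). Its AMH effect was 0.45 at 24 h (adjusted p = 0.27, limma) and -0.43 at 4 h (adjusted p = 0.102). The interaction was 0.88 with an interval of 0.35 to 1.42 (adjusted p = 0.156, limma; 1.09 with adjusted p = 0.0249 without the libraries of high oestrogen-responsive score). Atoh8, a helix-loop-helix factor, had -0.63 (-1.28 to 0.01), the inhibitory Smad6 had 0.27 (adjusted p = 0.445), and Smad7 had -0.15. The receptors Amhr2 (-0.23), Bmpr1a (-0.12) and Acvr1 (-0.19), and the transducers Smad1 (-0.16) and Smad5 (-0.21), did not pass the test. Without the libraries of high oestrogen-responsive score Atoh8 (-0.93, adjusted p = 0.0233, limma) and Smad1 (-0.43, adjusted p = 0.0249) were called. Amhr2, Bmpr1a, Acvr1, Smad5, Smad6 and Smad7 were not. Amhr2 averaged 4.72 FPKM in AMH uteri and 2.74 FPKM in controls at 24 h. At 4 h the values were 7.21 FPKM in AMH uteri and 3.39 FPKM in controls, where its AMH effect passed the test (0.90, adjusted p = 0.022). Coch, which encodes the matrix protein cochlin, ran from 1.45 to 80.3 FPKM in AMH uteri and from 0.136 to 19.1 FPKM in controls at 24 h, and from 46.8 to 73.6 FPKM in AMH uteri and from 5.34 to 12.6 FPKM in controls at 4 h (interaction -0.71, interval -3.03 to 1.60). Amh itself fell under the filter, with group means of 0.722 FPKM or less.

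**Figure D4:**
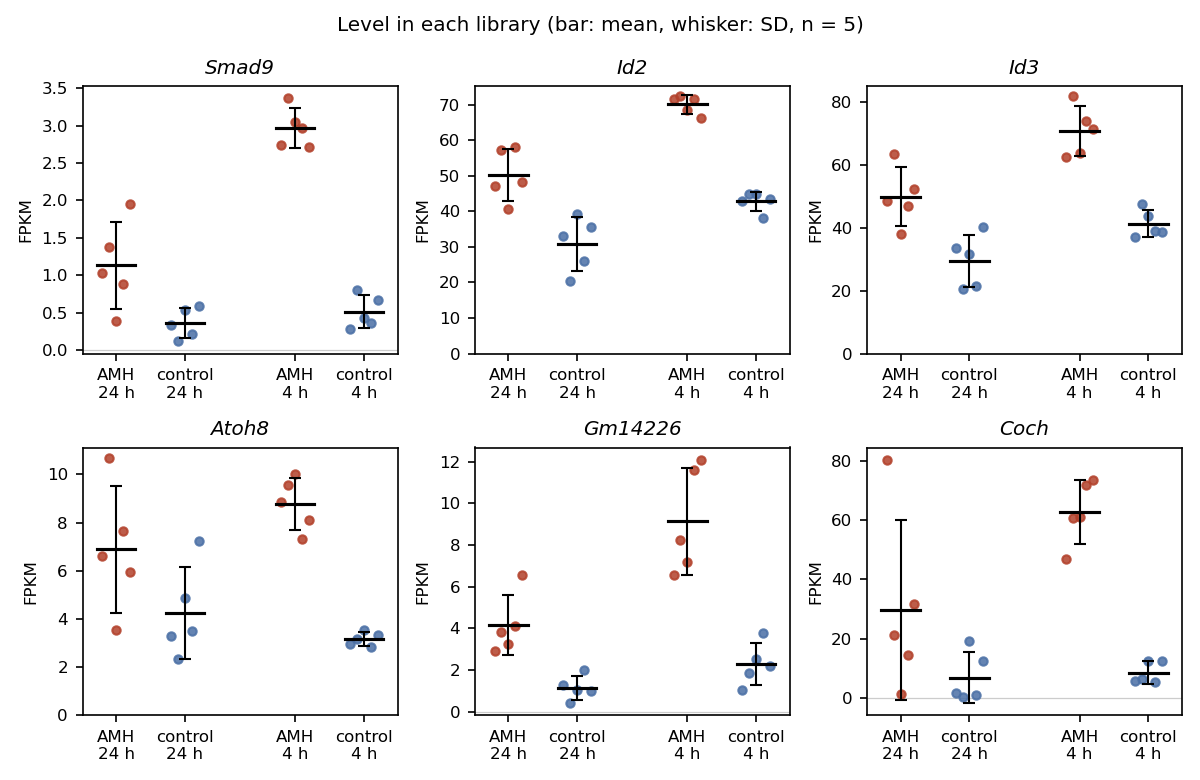
FPKM of 6 AMH-responsive genes in each of the 20 libraries, with AMH left of control and 24 h left of 4 h; each point is 1 library, the bar is the group mean and the whisker the SD (n = 5). Id2 lies higher in every AMH library than in every control at both times, and Smad9 is highest in the AMH uteri at 4 h.

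The 962 genes higher with AMH at 4 h had a median effect of 0.17 at 24 h, and 80.9% of them were above 0, against 47.3% of all genes. The 1232 genes lower with AMH at 4 h had a median of -0.19 at 24 h, and 86.7% were below 0, against 52.7% of all genes. The 11 genes higher with AMH at 24 h had a median of 0.43 at 4 h, with 9 above 0. The 18 genes lower with AMH at 24 h had a median of 0.07 at 4 h, with 12 above and 6 below 0. Of the 18, 7 were among the 25 called for the interaction, where 0.166% of all genes were. The interaction contains the 24 h effect in the same libraries, so this overlap follows in part from the choice of the 18. Across the 15084 genes the 24 h and 4 h effects, which share no library, had a Pearson r of 0.55; genes are not independent replicates. Passing the test at both times were Id2, Gm14226 and the microRNA gene Gm27785 (higher) and Acta1 and Tnfaip8l3 (lower). None of the 5 kept its 24 h call without the libraries of high oestrogen-responsive score, where the effect was 0.48 for Id2, 1.36 for Gm14226, 1.75 for Gm27785, -0.65 for Acta1 and -0.90 for Tnfaip8l3 (adjusted p = 0.153, 0.226, 0.453, 0.783 and 0.16, limma).

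Gm14226, which overlaps the nonagouti gene, averaged 4.14 FPKM in AMH uteri and 1.15 FPKM in controls at 24 h. The 4 h libraries gave 9.14 FPKM in AMH uteri and 2.28 FPKM in controls, with an effect of 1.26 at 24 h (adjusted p = 0.0337, limma) and 1.64 at 4 h (adjusted p = 0.00291). Acta1, the skeletal muscle form of actin, averaged 57.5 FPKM in AMH uteri and 135 FPKM in controls at 24 h. Its 4 h values were 46.1 FPKM in AMH uteri and 120 FPKM in controls. Its effect was -1.14 at 24 h (adjusted p = 0.0439, limma) and -1.37 at 4 h (adjusted p = 0.00487).

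Gene lists were described by their counts and medians beside those of all genes, whose median interaction was -0.01. Of 34 lists, 3 held a called gene. The glucocorticoid-responsive list, of genes that corticosteroids induce in many tissues, had 19 tested members, all below 0, a median of -0.81 and 2 called lower (Errfi1 and Per1; 0.0994% of all genes were). At 24 h 1 of them was called lower with AMH (Errfi1) and at 4 h 8 were called higher: Cebpd, Dusp1, Klf15, Klf9, Mt1, Pdk4, Per1 and Tsc22d3 (6.38% of all genes were called higher). The list score had a median of 3.79 in AMH uteri and 4.31 in controls at 24 h. Values at 4 h were 3.98 in AMH uteri and 3.62 in controls. Dusp1, a phosphatase that switches off MAP kinases, had an interaction of -1.07 (adjusted p = 0.119, limma), and Cebpd, a C/EBP transcription factor, had -1.21 (adjusted p = 0.0533). Without the libraries of high oestrogen-responsive score 10 of the 19 were called lower, against 3.69% of all genes. The number called lower was 2 with voom, 1 with median-of-ratios scaling and 1 without the libraries of high squamous score. Over all 15084 genes it was 11, 9 and 4.

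The core clock list had 20 tested members with a median of -0.39, 17 of them below 0 and 1 called lower (Per1; 0.0994% of all genes were). None was called with voom (3 lower with an unadjusted p under 0.05) or median-of-ratios scaling (4 lower). Without the libraries of high oestrogen-responsive score the median was -0.80 with 9 of 20 called lower, against 3.69% of all genes, and without those of high squamous score it was -0.20 with 14 below 0 and none called. Its score was lower at 24 h than at 4 h in both groups, with medians of 2.76 in AMH uteri and 2.56 in controls at 24 h. Harvest at 4 h gave 3.49 in AMH uteri and 2.98 in controls. Per2, the partner of Per1, averaged 4.45 FPKM in AMH uteri and 7.97 FPKM in controls at 24 h. Earlier, at 4 h, values were 8.17 FPKM in AMH uteri and 5.76 FPKM in controls (interaction -1.15, adjusted p = 0.065, limma). The part of the hour of harvest in these values was not tested. Immediate early genes, which cells induce within minutes of a stimulus, had 27 tested members with a median of -0.27, 6 above and 21 below 0. Of these 3 were called lower (Ctgf, Cyr61 and Jun), against 0.0994% of all genes. The count was 3 with voom, 2 with median-of-ratios scaling and 1 without the libraries of high squamous score. Over all 15084 genes it was 11, 9 and 4. Without the libraries of high oestrogen-responsive score 5 were called lower and 1 higher, against 3.69% and 5.09% of all genes.

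All 30 DNA replication genes were above 0 with a median of 0.86, none was called (limma), 1 had an unadjusted p under 0.05, and voom on rebuilt reads called none. With AMH 10 of the 30 were called lower at 4 h, against 8.17% of all genes, and none at 24 h, where the median was -0.36 with 28 below 0. That 24 h median was 0.21, above 0, without the libraries of high oestrogen-responsive score. Mcm2, a subunit of the replicative helicase, measured 4.06, 4.03, 32.8, 12.1 and 7 FPKM in AMH uteri and 16.8, 22.5, 5.2, 26.5 and 4.51 FPKM in controls at 24 h. At 4 h the values were 3.69, 4, 3.4, 3.43 and 3.87 FPKM in AMH uteri and 23.6, 25.1, 8.74, 11.3 and 14.5 FPKM in controls. AMH replicate 3 and control replicates 1, 2 and 4 at 24 h, the libraries of high oestrogen-responsive score, held the 4 highest values at that time. Cholesterol synthesis genes had 22 tested members, 19 above 0, a median of 0.68, none called (limma; 8 higher and none lower with an unadjusted p under 0.05; none by voom) and 10 called lower with AMH at 4 h (8.17% of all genes were); its 24 h median of -0.28 was 0.40 without the libraries of high oestrogen-responsive score. Srebf2, the transcription factor that drives this pathway, averaged 24.6 FPKM in AMH uteri and 27.1 FPKM in controls at 24 h. The 4 h libraries gave 14.2 FPKM in AMH uteri and 29.1 FPKM in controls (interaction 0.89, adjusted p = 0.337, limma). Without the libraries of high oestrogen-responsive score 18 of 22 cholesterol synthesis genes and 9 of 30 replication genes were called higher, against 5.09% of all genes. Without those of high squamous score the cholesterol median was 0.13, with 12 of 22 above 0.

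The oestrogen-responsive list had a median interaction of -0.01 over 38 tested genes, with none called (limma; 2 higher and 2 lower with an unadjusted p under 0.05; none by voom). The sign of that median depended on the processing. It was 0.17 with voom, -0.41 without the libraries of high squamous score and 0.62 without those of high oestrogen-responsive score. In that last fit 2 of the 38 were called higher and 3 lower, against 5.09% and 3.69% of all genes. The list also chose the libraries left out of that fit. Its median AMH effect was -0.69 at 24 h and -0.66 at 4 h, with 0 called lower at 24 h and 4 at 4 h, where 8.17% of all genes were; without the libraries of high oestrogen-responsive score the 24 h median was -0.16. The WNT and Müllerian duct list, which holds neither Frzb nor Wnt5b, had 24 of 36 above 0 (median 0.14) and none called (limma; 1 higher with an unadjusted p under 0.05; none by voom), and its median was -0.11 without the libraries of high oestrogen-responsive score. Extracellular matrix genes had 23 of 38 above 0 (median 0.045) and none called (2 higher and 2 lower with an unadjusted p under 0.05; none by voom), with a median of -0.06 without those libraries. Interferon-response genes had 27 of 29 below 0 (median -0.27) and none called (2 lower with an unadjusted p under 0.05; none by voom). None of the 16 cell type marker lists held a called gene, but these lists are short and 0.166% of all genes were called. A change in cell composition was not tested. Mesothelium markers had a median of 0.89 (1.62 by voom), with 6 of 9 above 0. Of these 9, 4 higher and 1 lower had an unadjusted p under 0.05 (limma), as did 822 and 924 of the 15084 genes. With AMH 3 of the 9 markers (Bnc1, Lrrn4 and Upk3b) were called lower at 4 h, against 8.17% of all genes. For adipocyte markers 9 of 10 were above 0 (median 0.70). Their summed level ran from 6.76 to 1450 FPKM in AMH uteri and from 61.4 to 158 FPKM in controls at 24 h. It ran from 14.9 to 487 FPKM in AMH uteri and from 78.7 to 407 FPKM in controls at 4 h.

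**Figure D5:**
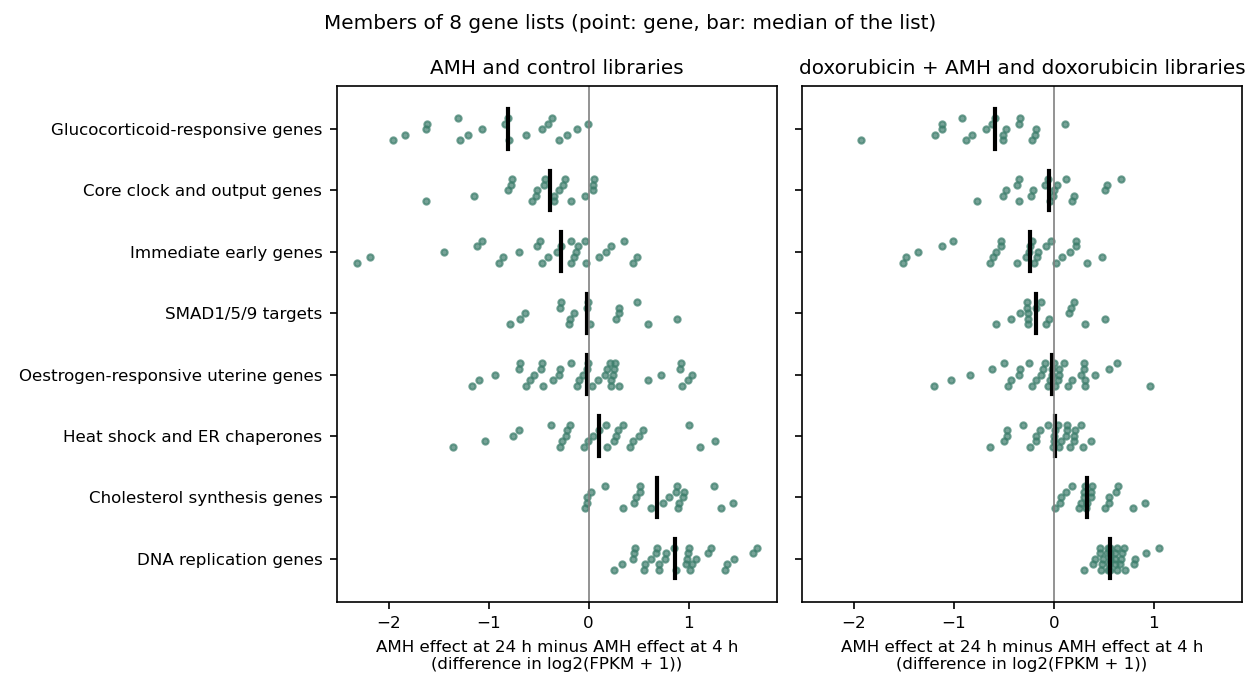
Log2 interaction (AMH effect at 24 h minus AMH effect at 4 h) of the members of 8 gene lists, without doxorubicin (left) and in doxorubicin-treated uteri (right); each point is 1 gene and the bar is the list's median. On the left all 19 glucocorticoid-responsive genes lie below 0 and all 30 DNA replication genes above it.

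The same contrast was then taken in the doxorubicin-treated uteri, in 20 libraries not used above, as the doxorubicin with AMH minus doxorubicin alone effect at 24 h less that at 4 h. Of 15418 genes 1 (0.00649%) passed the test: Banp, a factor that binds unmethylated CpG-rich promoters, at -0.79 (adjusted p = 0.045, limma); 622 had an unadjusted p under 0.05. AMH itself, against doxorubicin alone, gave 50 genes at 24 h (0.324%; 29 higher, 0.188%) and 6 at 4 h (0.0389%; 5 higher, 0.0324%). Of the 25 genes called without doxorubicin, 6 had an unadjusted p under 0.05 and none was called. The 15 lower genes had a median of -0.48 in doxorubicin-treated uteri, and 14 of them were below 0, where 63.7% of all genes below 0 in the first set were also below 0 in the second. The 10 higher genes had a median of 0.05, with 6 above 0, where 61.3% of all genes above 0 in the first set were also above 0. The difference between the contrasts, fitted over all 40 libraries, was called for none of 16226 genes (limma; 614 with an unadjusted p under 0.05).

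Errfi1 in doxorubicin-treated uteri measured 18, 16.9, 12.8, 16.7 and 15.8 FPKM with AMH and 25.5, 46.1, 28.4, 52.6 and 60.7 FPKM without it at 24 h, and 9.8, 12.4, 14.3, 16.3 and 18.9 FPKM with AMH and 12.8, 13.4, 30, 16.6 and 11.8 FPKM without it at 4 h. As without doxorubicin, every AMH library was below every library without AMH at 24 h; at 4 h the groups overlapped. The AMH effect at 24 h was -1.29 (adjusted p = 0.0296, limma), and the contrast between the times was -1.12 ± 0.35 (SE; unadjusted p = 0.0049, adjusted p = 0.992). Cyr61 measured 4.67, 6.94, 7.12, 8.73 and 10.7 FPKM with AMH and 26.4, 19.1, 20.2, 21 and 14.5 FPKM without it at 24 h, and 3.18, 4.08, 10.7, 5.86 and 7.84 FPKM with AMH and 4.16, 4.6, 6.55, 5.17 and 4.83 FPKM without it at 4 h. The 24 h groups did not overlap either, with an AMH effect of -1.32 (adjusted p = 0.0226, limma) and a contrast of -1.50 ± 0.33 (SE; unadjusted p = 0.00024, adjusted p = 0.741). Ctgf had a contrast of -1.01 ± 0.33 (unadjusted p = 0.00633, adjusted p = 0.992, limma) and Jun one of -0.64 ± 0.23 (unadjusted p = 0.0105, adjusted p = 0.992).

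The lists leaned alike in some cases and not in others. In doxorubicin-treated uteri 18 of 19 glucocorticoid-responsive genes were below 0 (median -0.59), all 30 replication genes and all 22 cholesterol synthesis genes were above 0 (medians 0.56 and 0.33), and all 29 interferon-response genes were below 0 (median -0.41). The clock list had a median of -0.05, with 8 above and 12 below 0, and mitosis genes had 0.24 there against -0.31 without doxorubicin. No list held a called gene in the doxorubicin-treated set.

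Crabp1, a cytosolic binding protein for retinoic acid, and Rbp7, a retinol-binding protein, lay just outside the threshold and were picked after their values were seen. Crabp1 measured 5.72, 14.9, 33.5, 27 and 24.5 FPKM in AMH uteri and 11.1, 7.65, 10.1, 29.8 and 8.68 FPKM in controls at 24 h. Its 4 h values were 4.38, 10.4, 8.85, 9.35 and 6.25 FPKM in AMH uteri and 37.1, 39.6, 20.8, 37.6 and 31.3 FPKM in controls. AMH libraries were all below controls at 4 h and overlapped them at 24 h, and the interaction was 2.56 (adjusted p = 0.0592, limma). Rbp7 averaged 2.3 FPKM in AMH uteri and 1.96 FPKM in controls at 24 h. Values at 4 h were 1.01 FPKM in AMH uteri and 4.46 FPKM in controls (interaction 1.59, adjusted p = 0.052, limma).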

How the data were processed

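RNA came from whole uteri (Qiagen extraction, Novogene libraries, per the labels' protocols). The authors deposited FPKM values of 54532 genes in a single table that also lists each gene's position and length, per the file headers. The submitters' processing notes name build mm10. Aligner, counter, annotation release and strand use were not given in the sources used here. Multiplying FPKM by length returned whole reads (tolerance 0.01), and these rebuilt reads served for depth and for 1 alternative. Replicates of a group differed by more than sampling noise in every pair (chi-square per degree of freedom of 14.1 or more), and their Pearson correlations ran from 0.8609 to 0.9786.

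A gene was tested if 5 of the 20 libraries reached 1 FPKM, which left 15084 genes (12877 protein-coding). Tests used limma 3.58.1 in R 4.3.3 on log2(FPKM + 1), and files were read with data.table, version 1.17.8. The fit had an intensity trend, 1 mean per group and 16 residual degrees of freedom. It used 1 variance per gene for all groups, although replicates varied more at 24 h than at 4 h. For an effect at 1 time, p-values may thus be too small at 24 h and too large at 4 h. The pseudocount of 1 FPKM makes fold changes of low genes too small. Two-sided p-values underwent Benjamini-Hochberg adjustment over all genes tested, and a gene with an adjusted p under 0.05 is called. The interaction is the AMH minus control difference at 24 h minus that at 4 h. The same contrast was fitted apart in the 20 doxorubicin libraries, and the difference between both over 40. The median SE was 0.21 for the interaction and 0.15 for an effect at 1 time. The code was tested on simulated data. Figures were drawn in Python 3.11.15 with matplotlib 3.10.9.

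Named were up to 15 protein-coding called genes per direction with a group mean of 2 FPKM or more, up to 4 members of each of 34 gene lists with the smallest p, and a fixed set of AMH pathway and hormone genes; other names were chosen after their values were seen, as said beside them. The members and the lists were chosen with earlier results of these data known. The deviations of same-numbered replicates correlated above 0.1 in 13 of 30 pairs (all 6 of replicate 5), not in every pair, so the numbers were not used as pairs. Alternatives changed the pseudocount, filter, scaling, libraries, weights, prior, replicate block and test, and are given after the report.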

Additional observations from a re-analysis of the deposited data

Results flagged for a closer look

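Single libraries that stood far from the other 4 of their group were searched for in 75 genes, and 22 of 300 groups (7.33%) held one, where chance gives about 5%. At 24 h in AMH uteri these were Tiparp in replicate 4 (6.73 FPKM), Gm13408 in replicate 4 (2.2 FPKM), Smyd5 in replicate 3 (7.58 FPKM), Mcm2 in replicate 3 (32.8 FPKM), Calr in replicate 3 (385 FPKM) and Tnfaip8l3 in replicate 3 (14.8 FPKM). In controls at 24 h they were Cyr61 in replicate 2 (81.9 FPKM), Serinc3 in replicate 3 (132 FPKM), Mettl1 in replicate 3 (8.34 FPKM), Gm27785 in replicate 3 (0.525 FPKM) and Crabp1 in replicate 4 (29.8 FPKM). In AMH uteri at 4 h they were Cyr61 in replicate 5 (18.5 FPKM), Tiparp, Cebpd, Igfbp5 and Acta1 in replicate 2 (8.73, 14.2, 322 and 63.1 FPKM), Gm7331 in replicate 5 (3.73 FPKM), Abca2 in replicate 3 (4.68 FPKM), and Smad7 and Ltf in replicate 1 (10.5 and 77.6 FPKM). In controls at 4 h they were Smyd5 in replicate 4 (11.3 FPKM) and Bnc1 in replicate 1 (3.17 FPKM). Of the 6 such values in AMH uteri at 24 h, 4 came from replicate 3, the AMH library with the highest oestrogen-responsive score at that time; the part of that score in them was not tested.

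The AMH effect differed between 24 h and 4 h, by the test of the difference itself, for 25 genes. The log2 difference was -2.32 for Ctgf, -2.18 for Cyr61, -1.96 for Errfi1, -1.62 for Per1, -1.45 for Jun, -1.25 for Spsb1, -1.23 for Mettl7a1, -1.18 for Frzb, -1.06 for Tiparp, -0.98 for Gm7331, -0.97 for Rps13-ps1, -0.94 for Wnt5b, -0.86 for Myocd, -0.77 for Serinc3 and -0.76 for Gm13408. It was 1.27 for Diras2, 1.07 for Gamt, 1.02 for Mettl1, 0.96 for Pm20d2, 0.84 for Borcs5, 0.81 for Sgsh, 0.81 for Smyd5, 0.73 for Cep41, 0.64 for Abca2 and 0.59 for Pomk.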

How the results depend on the processing

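No called gene described here reversed its direction under an alternative, and Errfi1 and Ctgf were called in all 32. The count of 25 genes for the interaction was 12 with a pseudocount of 0.1 FPKM (3 higher, 9 lower), 12 with median-of-ratios scaling (3 higher, 9 lower), 3 with no filter, 36 with a filter of 5 FPKM (12 higher, 24 lower), 16 with no intensity trend, 181 with library weights (82 higher, 99 lower), 36 with voom on rebuilt reads (25 higher, 11 lower; 18 of the 25 among them), 25 with all 40 libraries in the fit (4 higher, 21 lower; 13 of the 25 among them), 1325 without the 4 libraries of high oestrogen-responsive score and 5 without the 7 of high squamous score. With the replicate block it was 6 (1 higher, 5 lower), although the numbers were not taken to pair the libraries: 2 of 20 libraries correlated best with their own number. For AMH against control at 24 h the count of 29 was 17 with a pseudocount of 0.1 FPKM, 2 with no filter, 19 with a filter of 5 FPKM, 75 with all 40 libraries, 3258 with weights, 9 with the block, 15 with voom, 10 without the high oestrogen-responsive libraries and 1746 without the high squamous ones. At 4 h the count of 2194 was 1193 with no filter, 6501 with weights and 496 without the high squamous libraries. Leaving out single libraries gave 2 to 210 genes for the interaction, 1 to 360 for AMH at 24 h, 597 to 2120 for AMH at 4 h, 278 to 1585 for control uteri between the times (1585 without replicate 3 at 24 h) and 23 to 1484 for AMH uteri between the times (1484 without replicate 1 at 24 h). At 24 h the AMH count was 360 without control replicate 3 and 298 without AMH replicate 3, but 1 without control replicate 1 or AMH replicate 4, 4 without control replicate 2 or AMH replicate 5, 7 without AMH replicate 2, 14 without control replicate 4 and 17 without AMH replicate 1. At 4 h it was lowest without control replicate 2 (597) and control replicate 4 (786), and 917 to 1223 without control replicate 1 or AMH replicates 1, 3, 4 or 5. In doxorubicin-treated uteri the interaction count of 1 was 0 with a pseudocount of 0.1 FPKM, no filter, a filter of 5 FPKM, no trend, the block or voom, 2 with weights, and 0 to 1 without single libraries. The difference between both interactions was called for 0 genes under each alternative run (614 with unadjusted p under 0.05 in limma). The cause of these changes was not tested.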
